A study of Mus musculus with 40 samples.

Results

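Multipotent progenitors (MPPs) were compared with haematopoietic stem cells (HSCs) among the GFP-low cells of WT mouse bone marrow, with 3 RNA-seq libraries of each cell type. These are 6 of the 40 libraries of a study of the histone chaperone HIRA, which fall into 12 groups. The 6 columns were taken by their labels from a table of GFP-low HSCs and a table of GFP-low MPPs, which were joined by gene ID and brought to a common scale. Of 15606 genes present in both tables, 10678 reached 1 FPKM (fragments scaled by gene length and library size) in at least 3 of the 6 libraries and were tested, and 4928 did not. Just inside this limit were Spag4 and Sec22c, and just outside it Gucy1b1 and 1700001L05Rik, with a third-highest value of 1.00 FPKM in each. A gene under 1 FPKM in every library of 1 cell type was tested only if all 3 libraries of the other reached it. For such genes the filter itself sets the groups apart. Cebpa, Gfi1, Satb1, Il1r1, Slamf1, Vwf and Cavin2 below are among them.

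Both groups came from C57BL/6 mice labelled WT, and they share the strain, the reporter and the treatment. The H2B-GFP mice are described with the alleles Mx1-Cre, Hira fl/fl, Rosa26-M2rtTA and TetOP-H2B-GFP, and which of these the WT mice carried is not given in the sources used here. H2B-GFP was switched on for 6 weeks with doxycycline in drinking water (2 mg/ml, sweetened with sucrose at 10 mg/ml), 2 doses of 20 µg poly(I:C) followed, and cells were sorted 15 days after the last dose, at the end of a 17-day chase without doxycycline. H2B-GFP sits on chromatin and is diluted at each division, so the GFP-low gate holds the cells that divided more, provided that each cell was labelled at the start. Mx1-Cre is driven by an interferon-responsive promoter and poly(I:C) induces interferon, which both cell types received. Ages, the surface markers of the gates and the number of cells sorted by GFP are not given in the sources used here. The series describes the 3 replicates as biological, but the labels do not tie a library to a mouse, so p-values measure only the spread between these libraries.

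HSCs renew themselves for life and give rise to MPPs, which produce all blood lineages but sustain them for a shorter time. In textbook schemes the step from HSC to MPP brings the receptor Flt3 to the surface, lowers CD150 (Slamf1), and opens lymphoid and granulocyte-monocyte genes at low level. Many HSCs also carry transcripts of megakaryocytes, the cells that shed platelets.

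The GFP-low MPPs held far more of the receptor Flt3, the lymphoid genes Dntt and Tespa1 and the chemokine neighbours Ccl3 and Wfdc17 than the HSCs. They held far less of the megakaryocyte genes Cavin2 and Treml1, the HSC genes Slamf1 and Vwf and the enzymes Gstm2 and Aldh1a1. In total 508 of the 10678 genes passed the test (4.76%), 296 higher (2.77%) and 212 lower (1.99%) in MPPs, and all 508 had groups that did not overlap. With every library scaled to the same FPKM total instead, 250 genes passed higher and 263 lower. Over all tested genes, the groups did not overlap in 2234 (20.9%), and the unadjusted p lay below 0.05 for 1671 genes, with 534 expected. Of the called genes, 109 were at least 2-fold higher and 80 at least 2-fold lower, and 11 and 10 passed 4-fold. The test was limma on log2(FPKM + 1) with Benjamini-Hochberg adjustment at 0.05, so fold changes of low genes are understated. With the replicate number as a block, which these libraries allow, 817 genes passed, 500 higher and 317 lower, among them 506 of the 508. Without HSC replicate 1, HSC replicate 3 or MPP replicate 2 the count was 286, 301 and 283.

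**Figure D1:**
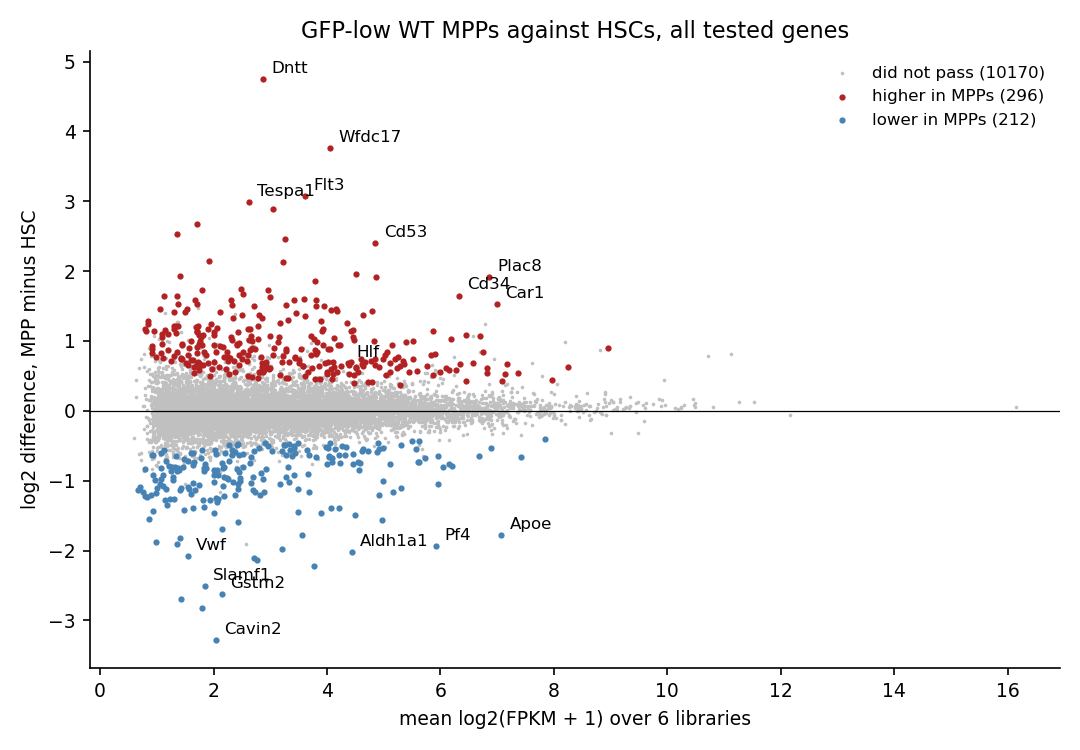
Each point is a tested gene, by its mean log2(FPKM + 1) over the 6 libraries (x axis) and its log2 difference between MPPs and HSCs (y axis). The 296 genes that passed higher in MPPs are red and the 212 lower are blue, and differences reach from -3.28 for Cavin2 to 4.75 for Dntt around an all-gene median of 0.00.

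HSCs and MPPs stand in tables that were scaled separately, so table and cell type cannot be told apart except through the joint scaling, whose factors lay between 0.995 and 1.00. Whole reads could be recovered from the FPKM steps for 99.99% of genes (within 0.01 of a whole number). They gave 6400092 to 9374116 reads for the HSC libraries and 6852054 to 8901067 for the MPP libraries. Genes at 1 FPKM or more numbered 10477 to 10586 per library, and libraries correlated at 0.980 to 0.983 within a cell type and 0.963 to 0.973 between cell types. The 45S ribosomal RNA gene Rn45s took 65950 to 79991 FPKM per library and did not differ (log2 0.06, adjusted p = 0.875). In these bulk values, fewer cells of a type and less RNA per cell cannot be told apart.

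Markers of both cell types are set beside the labels. Kit, the receptor shared by stem and progenitor cells, stood at 96.9, 117 and 111 FPKM in HSCs and 96.5, 114 and 114 in MPPs (log2 -0.00, adjusted p = 0.999), and its groups overlapped almost fully. Slamf1, the HSC antigen CD150 (chromosome 1, 171767131 to 171801184 in GRCm38), stood at 6.68, 8.23 and 7.85 FPKM in HSCs and 0.418, 0.379 and 0.740 in MPPs (log2 -2.51, SE 0.14, adjusted p = 4.47e-05), on 29 to 645 reads. Every MPP library was under 1 FPKM and every HSC library over 6. Cd48, a surface protein of progenitors that sorted HSCs usually lack, stood at 7.95, 5.61 and 4.52 FPKM in HSCs and 15.4, 24.3 and 21.3 in MPPs (log2 1.61, SE 0.20, adjusted p = 0.0025). It was thus present in the HSC libraries too, at a lower level than in any MPP library. Flt3, Cd34, Slamf1 and Cd48 are commonly used to set such gates, so their differences are given as a description of the sorted cells. Which surface proteins were used here is not given, and any that were would also count in the lists below.

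**Figure D2:**
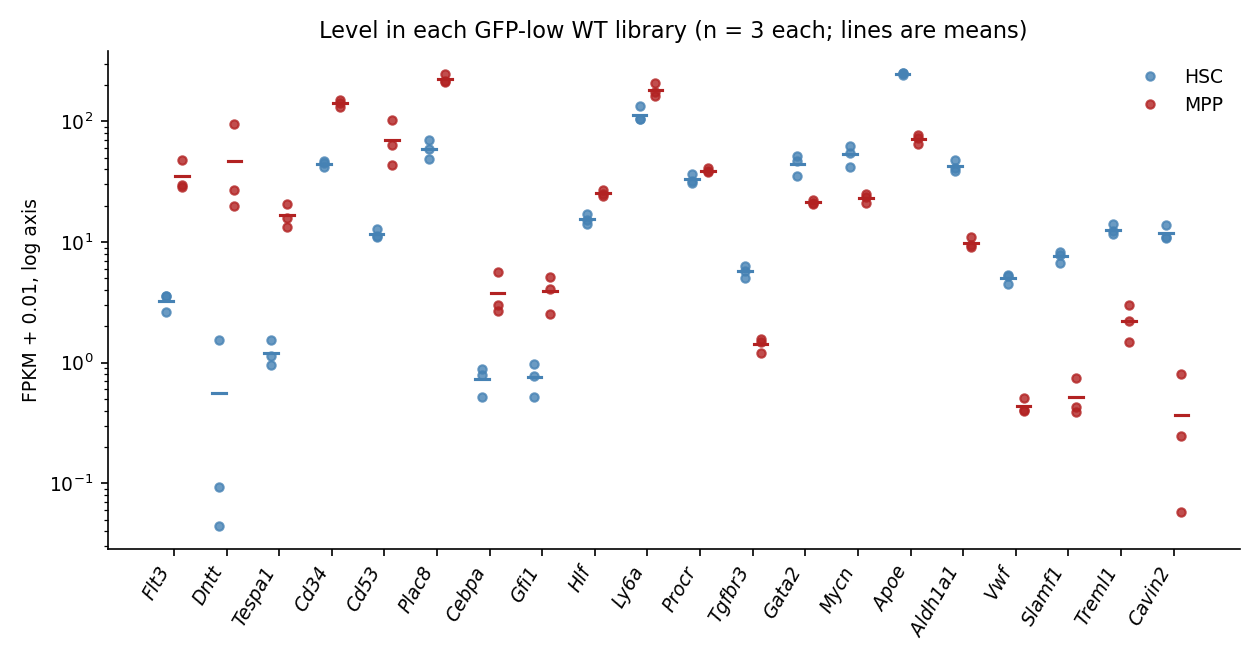
FPKM of 20 genes in each GFP-low WT library on a log axis (0.01 added), with HSCs in blue, MPPs in red and lines at the means of 3 libraries. Flt3, Dntt, Tespa1 and Cd34 are higher in every MPP library, Vwf, Slamf1, Treml1 and Cavin2 are lower in every MPP library, and Hlf, Ly6a and Procr are higher in MPPs despite their place among HSC genes (Procr did not pass the test).

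MPP and lymphoid priming genes rose together: 14 of 20 tested members rose and 0 fell (background 2.77% higher), with a median log2 difference of 1.09 against 0.00 over all tested genes. Flt3, the receptor for the cytokine FLT3 ligand, stood at 2.61, 3.55 and 3.59 FPKM in HSCs and 28.8, 48 and 29.8 in MPPs (log2 3.07, SE 0.19, adjusted p = 6.07e-05; chromosome 5, 147330741 to 147400489). No HSC library reached 4 FPKM and no MPP library fell under 28. Dntt, the terminal transferase that adds bases to the joints of antigen receptor genes (chromosome 19, 41029275 to 41059525), stood at 1.54, 0.0343 and 0.0838 FPKM in HSCs and 27.1, 95 and 19.7 in MPPs (log2 4.75, SE 0.53, adjusted p = 0.00165). Its HSC level rested on HSC replicate 1, and its reads ranged from 1 to 2709, while the MPP level varied by almost 5-fold among libraries. Tespa1, an adaptor of T cell receptor signalling, stood at 1.13, 1.54 and 0.940 FPKM in HSCs and 13.4, 20.7 and 15.8 in MPPs (log2 2.99, adjusted p = 4.47e-05), and no library of either type came near the other type's range. Cd34, a sialomucin of progenitors, stood at 46.7, 41.7 and 45.3 FPKM in HSCs and 132, 142 and 151 in MPPs (log2 1.65, adjusted p = 4.47e-05), with no MPP library under 130 and no HSC library over 47.

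Surface proteins of leukocytes rose with them. Cd53, a tetraspanin, stood at 12.7, 11.1 and 11 FPKM in HSCs and 43.3, 103 and 63.1 in MPPs (log2 2.40, adjusted p = 0.00114). Cd52, a small surface glycoprotein of lymphocytes, stood at 16.1, 13 and 12.8 FPKM in HSCs and 54.8, 67.6 and 46.1 in MPPs (log2 1.92, adjusted p = 0.000213). All MPP libraries were above all HSC libraries in these genes. Cd244a (log2 1.73), Cd27 (log2 0.67), Lsp1 (log2 0.68) and Cd48 rose too. Among regulators of lymphoid fate, Satb1, a chromatin organiser, stood at 0.0936, 0.210 and 0.202 FPKM in HSCs and 1.27, 2.74 and 1.47 in MPPs (log2 1.24, adjusted p = 0.0085), which leaves it near 0 in HSCs. Notch1, the receptor that directs T cell fate (log2 0.94), and Ikzf1, the factor Ikaros (log2 0.64), rose as well. The 6 members that did not pass were Mef2c (log2 -0.32, adjusted p = 0.151), Hmga2 (log2 -0.27), Xrcc5 (log2 -0.10), Bcl11a (log2 0.13), Lmo4 (log2 0.19) and Tcf3 (log2 0.29). The later lymphoid genes Il7r, Rag1, Rag2 and Ccr9 were below the filter. The count of 14 was 11 to 14 when each library was left out in turn. It includes Flt3, Cd34 and Cd48, which the sort may have set.

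Granulocyte-monocyte genes rose in 11 of 29 tested members and fell in 0, with a median of 0.47. Genes of mature neutrophils were positive beside them in 13 of 13 tested members (median 0.82), and their part in these rises was not tested. Over all 10678 tested genes 5362 were positive. Among their transcription factors, Cebpa, which starts the granulocyte programme, stood at 0.881, 0.778 and 0.512 FPKM in HSCs and 5.6, 2.66 and 3.01 in MPPs (log2 1.42, SE 0.22, adjusted p = 0.00598). Gfi1, a repressor needed for neutrophils, stood at 0.512, 0.764 and 0.965 FPKM in HSCs and 2.51, 5.1 and 4.08 in MPPs (log2 1.46, SE 0.21, adjusted p = 0.00413). Both were under 1 FPKM in each HSC library and above 2.5 in each MPP library, so they passed the filter through the MPP libraries alone. Spi1, the factor PU.1, already stood at 35.4, 36.2 and 32.9 FPKM in HSCs and rose to 50.5, 60.1 and 45.3 (log2 0.56, adjusted p = 0.0243). Csf3r, the G-CSF receptor, stood at 9.93, 8.27 and 7.61 FPKM in HSCs and 19.95, 24.9 and 22.3 in MPPs (log2 1.29, adjusted p = 0.00077), and Csf2rb, the shared beta chain of the GM-CSF receptor, rose by a log2 of 0.78. Plac8, a small protein of myeloid and lymphoid progenitors, had the highest MPP mean in FPKM among the risers of this list, with 70, 49.2 and 58.5 FPKM in HSCs and 215, 246 and 213 in MPPs (log2 1.92, adjusted p = 0.000112). The enzymes of the primary granules gave different results. Prtn3, proteinase 3, rose (131, 162 and 118 FPKM in HSCs and 183, 220.2 and 194 in MPPs, log2 0.54, adjusted p = 0.0423), while Elane, neutrophil elastase, stood at 173, 104 and 119 FPKM in HSCs and 150.1, 147 and 55.2 in MPPs (log2 -0.27, adjusted p = 0.809) and Mpo, myeloperoxidase, at 147, 71.3 and 95.4 FPKM in HSCs and 202, 169 and 66 in MPPs (log2 0.39, adjusted p = 0.726). In Elane and Mpo the libraries of the cell types overlapped, and MPP replicate 3 was the lowest of all 6 in both. Across 50 transcription factors of blood cells 9 rose and 4 fell, with Runx3 (log2 0.76) and Sox4 (log2 0.70) among the rises, and 12 and 6 with the block. Without MPP replicate 1, 2 or 3 the rises of these factors numbered 3, 3 and 4. The count of 11 granulocyte-monocyte genes was 5 without MPP replicate 1, 5 without MPP replicate 2 and 7 without HSC replicate 3. The median was 0.28 without MPP replicate 1 or 2 and 0.65 without MPP replicate 3.

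The largest rises outside these lists included neighbours on chromosome 11. Wfdc17, a secreted protein of myeloid cells, stood at 4.6, 4.86 and 1.8 FPKM in HSCs and 31, 135 and 51.1 in MPPs (log2 3.76, SE 0.47, adjusted p = 0.00248). Ccl3, the chemokine MIP-1 alpha, stood at 1.24, 4.51 and 1.25 FPKM in HSCs and 18.3, 34.3 and 15.4 in MPPs (log2 2.88, adjusted p = 0.00268), and Ccl9, a related chemokine, at 4.45, 2.76 and 3.38 FPKM in HSCs and 19.1, 23.4 and 14.3 in MPPs (log2 2.13, adjusted p = 0.000506). The MPP libraries exceeded the HSC libraries in each, though Wfdc17 varied by over 4-fold among MPPs. Ccl4 (log2 0.64) and Wfdc18 (log2 2.53) lie in the same stretch of 138 kb (chromosome 11, 83572917 to 83711360) and rose too, so that 5 tested genes in a row passed. Another run, of 4 falling genes, lies on the X chromosome and holds Bex4 (27.6, 28.6 and 30.5 FPKM in HSCs and 14.6, 9.13 and 8.33 in MPPs, log2 -1.39, adjusted p = 0.0025), Tceal8 (log2 -0.67), Tceal5 (log2 -0.55) and Bex1 (log2 -0.76). Among all 508 called genes, 74 lie in 34 such runs of 2 or more tested neighbours within 500 kb that moved the same way. How many such runs random positions would give was not computed, so the count is a description only. Genes of a run can share reads or sequence, as chemokine and Bex paralogs do, and how the counting treated such reads is not given in the sources used here.

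HSC-enriched genes fell in 16 of 37 tested members (background 1.99% lower) and rose in 3, with a median of -0.54. The 16 include Slamf1, which the sort may have set. Vwf, the platelet-adhesion factor that marks a platelet-primed part of the HSCs, stood at 5.24, 5.3 and 4.52 FPKM in HSCs and 0.499, 0.390 and 0.394 in MPPs (log2 -2.07, SE 0.13, adjusted p = 6.07e-05; chromosome 6, 125552948 to 125686679). Every HSC library was above 4.5 FPKM and no MPP library reached 0.5. Sult1a1, a sulfotransferase, stood at 21.8, 30.2 and 35.3 FPKM in HSCs and 5.46, 4.91 and 5.74 in MPPs (log2 -2.22, adjusted p = 0.000166), and Clec1a, a C-type lectin, at 4.57, 5.31 and 4.45 FPKM in HSCs and 1.7, 1.26 and 0.808 in MPPs (log2 -1.37, adjusted p = 0.00204). Among the regulators, Mycn, a MYC family factor, stood at 63, 55.1 and 41.9 FPKM in HSCs and 24.9, 21.1 and 23.4 in MPPs (log2 -1.15, adjusted p = 0.0025). Gata2, a factor that HSCs depend on, stood at 35.6, 51.5 and 46.6 FPKM in HSCs and 20.7, 22.2 and 21.1 in MPPs (log2 -1.01, adjusted p = 0.00297). Mllt3 (log2 -0.88), a reader of chromatin, and Gfi1b (log2 -0.73), a repressor of the erythroid and megakaryocyte lineages, fell as well. Tek, the angiopoietin receptor TIE2, stood at 3.32, 3.57 and 4.67 FPKM in HSCs and 1.72, 1.04 and 2.35 in MPPs (log2 -0.86, adjusted p = 0.0367), and Tie1, its relative, had a log2 of -0.46. Both calls were lost on leaving out single libraries, that of Tek without any but MPP replicate 3 and that of Tie1 without any but HSC replicate 3.

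Not all HSC-enriched genes fell. Hlf, a transcription factor that marks HSCs, was higher in MPPs, with 14.1, 15.1 and 17.1 FPKM in HSCs and 24.9, 24.1 and 26.9 in MPPs (log2 0.68, SE 0.10, adjusted p = 0.00559; chromosome 11, 90336535 to 90390917). Ly6a, the antigen Sca-1 of stem and progenitor cells, stood at 104, 133 and 104 FPKM in HSCs and 174, 208 and 163 in MPPs (log2 0.67, SE 0.13, adjusted p = 0.0169). Hoxa9, which supports stem cell self-renewal, stood at 13.7, 13 and 13.6 FPKM in HSCs and 19.8, 18 and 18.6 in MPPs (log2 0.46, SE 0.09, adjusted p = 0.0229). In all 3 the lowest MPP library was above the highest HSC library, as groups did not overlap in 20.9% of all tested genes. Across the alternative settings the call was lost in 2 for Hlf, 5 for Ly6a and 9 for Hoxa9. That of Hoxa9 was lost on leaving out any 1 library. Procr, the HSC antigen EPCR, stood at 32.3, 36.5 and 30.7 FPKM in HSCs and 38.8, 37.9 and 40.7 in MPPs (log2 0.23, adjusted p = 0.276) and did not pass, though its groups did not overlap. Mecom, an HSC factor, stood at 5.28, 4.36 and 5.78 FPKM in HSCs and 3.5, 2.49 and 3.3 in MPPs (log2 -0.59, adjusted p = 0.0539), close to the threshold. Meis1 (log2 -0.37, adjusted p = 0.187), Fgd5 (log2 -0.40, adjusted p = 0.377) and Hoxb5 (log2 -0.69, adjusted p = 0.0743) did not pass. Leaving out each library gave 11 to 14 falls and 1 to 2 rises in this list.

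Megakaryocyte genes fell together: 14 of 18 tested members fell and 0 rose, with a median of -1.03, and their summed level was 391.9 to 502 FPKM in HSC libraries and 191 to 195 in MPP libraries. Cavin2, a coat protein of caveolae that platelets carry, stood at 10.8, 11 and 13.9 FPKM in HSCs and 0.0481, 0.237 and 0.791 in MPPs (log2 -3.28, SE 0.20, adjusted p = 6.07e-05), and fell to 2 reads in its lowest library. Treml1, a receptor of platelet granules, stood at 14, 12.3 and 11.7 FPKM in HSCs and 1.47, 2.98 and 2.19 in MPPs (log2 -2.11, adjusted p = 0.00028). Pf4, the platelet chemokine PF4, stood at 104, 176 and 87.5 FPKM in HSCs and 24.8, 35.6 and 30.3 in MPPs (log2 -1.93, SE 0.23, adjusted p = 0.00222). HSC replicate 2 held the most Pf4 and all MPP libraries lay close together. Mmrn1, multimerin of platelet granules, stood at 20.5, 19.9 and 22 FPKM in HSCs and 5.61, 3.84 and 7.02 in MPPs (log2 -1.78, adjusted p = 0.000643). The fibrinogen receptor fell in both chains, Itga2b from 25.4, 21.1 and 24.6 to 8.23, 5.3 and 11.4 FPKM (log2 -1.46, adjusted p = 0.00461) and Itgb3 from 6.65, 7.15 and 6.95 to 2.52, 1.92 and 2.9 (log2 -1.21, adjusted p = 0.00147). The receptor for von Willebrand factor fell as well, with Gp9 at 60.9, 64.8 and 46.7 FPKM in HSCs and 27.8, 25.6 and 24.5 in MPPs (log2 -1.11, adjusted p = 0.002), Gp5 at 15, 18 and 14 FPKM in HSCs and 7.66, 4.76 and 7.79 in MPPs (log2 -1.13, adjusted p = 0.00598) and Gp1ba at a log2 of -0.80. The thrombin receptor F2r (log2 -0.75), the tubulin Tubb1 (log2 -1.16) and the adhesion molecule Selp (log2 -0.96) fell too. Ppbp (log2 -0.36, adjusted p = 0.451), Fli1 (log2 -0.33), Plek (log2 0.31) and Thbs1 (log2 0.63) did not pass. Leaving out each library gave 10 to 13 falls.

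**Figure D3:**
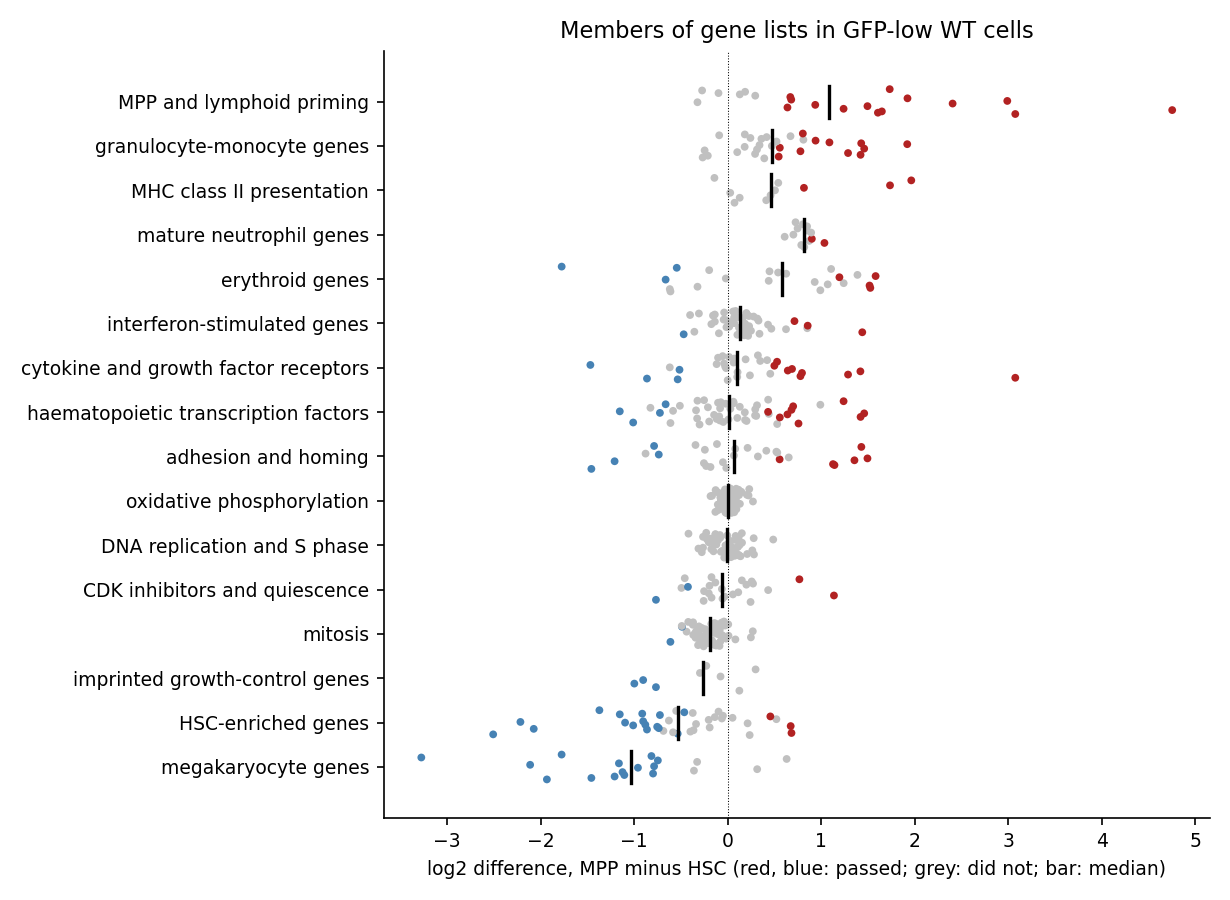
Log2 differences (x axis, MPP minus HSC) of the tested members of 16 gene lists, 1 point a gene, red or blue where it passed higher or lower, with a bar at the list's median. Medians run from -1.03 for megakaryocyte genes to 1.09 for MPP and lymphoid priming, and DNA replication and oxidative phosphorylation stay narrow around 0.

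Erythroid genes split. Rises were found for 4 of 22 tested members and falls for 3, with a median of 0.58, beside 2.77% higher and 1.99% lower over all tested genes. With the replicate block 12 rose and 5 fell, and in a fit of all 12 GFP-low libraries 0 rose and 1 fell. Without MPP replicate 2 the falls numbered 1. Car1, carbonic anhydrase 1, stood at 72.7, 66.4 and 85.9 FPKM in HSCs and 319.6, 206 and 154 in MPPs (log2 1.52, SE 0.23, adjusted p = 0.00505; chromosome 3, 14766214 to 14808365). Rhd, the Rhesus protein of red cells, stood at 7.34, 4.78 and 10.2 FPKM in HSCs and 36.5, 18.3 and 19 in MPPs (log2 1.58, SE 0.29, adjusted p = 0.0135). Ermap, an erythroid membrane protein, stood at 0.835, 1.01 and 1.63 FPKM in HSCs and 5.3, 2.69 and 4.0 in MPPs (log2 1.19, adjusted p = 0.0124). In Car1, Rhd and Ermap MPP replicate 1 was the highest of the 6 libraries. Haemoglobin Hba-a1 (log2 1.07, adjusted p = 0.149), Slc4a1 (log2 1.39, adjusted p = 0.0689) and Klf1 (log2 0.99, adjusted p = 0.0545) were higher in MPPs without passing. Apoe, apolipoprotein E, fell from 249, 249.9 and 244 to 77.8, 64.7 and 72.9 FPKM (log2 -1.78, SE 0.09, adjusted p = 4.47e-05). It is listed as erythroid but is also abundant in HSCs. Zfpm1, the GATA cofactor FOG1 (log2 -0.66), and Icam4, an adhesion protein of red cells (20.6, 21.8 and 18.6 FPKM in HSCs and 14.3, 12.4 and 14.2 in MPPs, log2 -0.55, adjusted p = 0.0176), fell as well. Epor, the erythropoietin receptor (log2 -0.62, adjusted p = 0.0648), and Gata1 (log2 -0.61, adjusted p = 0.235) did not pass.

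Promoter letters were read for 8600 tested genes from the RefSeq table of GRCm38.p6, taking the 250 bases before the start. The letters AGATAA or TTATCT, which GATA factors bind, occurred in 5.77% of tested promoters, in 9.42% of those of rising genes and in 10.4% of those of falling genes. Of all RefSeq promoters, tested or not, 10.3% held them. Erythroid promoters held them in 5 of 17 (29.4%) and megakaryocyte promoters in 1 of 14 (7.14%). The promoters of Rhd, which rose, Icam4, which fell, and Gp5, the 1 megakaryocyte gene with matches, are shown because genes with the same letters moved in opposite directions. Capitals mark the matches, each line reads 5′ to 3′ along the gene, and these genes were chosen after their values were seen.
Rhd (chr4:134864286-134864535, plus strand): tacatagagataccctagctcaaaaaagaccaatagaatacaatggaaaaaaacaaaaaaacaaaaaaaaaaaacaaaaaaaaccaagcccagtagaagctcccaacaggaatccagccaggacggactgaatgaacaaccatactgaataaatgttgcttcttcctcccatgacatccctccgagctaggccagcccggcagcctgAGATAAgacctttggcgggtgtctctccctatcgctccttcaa
Icam4 (chr9:21029182-21029431, plus strand): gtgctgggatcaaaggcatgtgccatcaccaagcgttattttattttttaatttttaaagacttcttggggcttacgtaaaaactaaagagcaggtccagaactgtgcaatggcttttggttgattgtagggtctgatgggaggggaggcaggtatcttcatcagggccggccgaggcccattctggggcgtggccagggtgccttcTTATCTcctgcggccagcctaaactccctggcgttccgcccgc
Gp5 (chr16:30310782-30311031, minus strand): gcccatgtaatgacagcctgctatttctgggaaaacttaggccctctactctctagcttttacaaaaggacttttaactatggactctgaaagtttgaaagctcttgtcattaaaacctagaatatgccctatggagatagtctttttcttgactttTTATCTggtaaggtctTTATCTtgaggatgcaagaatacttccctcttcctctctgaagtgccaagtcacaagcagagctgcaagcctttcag
The match begins 43 bases before the start in both Rhd and Icam4, on opposite strands, and at 93 and 77 bases in Gp5. A match describes letters only, and binding was not measured.

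Enzyme, receptor and adhesion lists are given beside 2.77% called higher and 1.99% lower over all tested genes. Aldh1a1, the retinaldehyde dehydrogenase, stood at 40.9, 48.2 and 39.1 FPKM in HSCs and 10.9, 9.38 and 9.0 in MPPs (log2 -2.02, SE 0.12, adjusted p = 4.47e-05), and Gstm2, a glutathione transferase, at 10.2, 13.6 and 7.15 FPKM in HSCs and 1.14, 1.01 and 0.332 in MPPs (log2 -2.62, SE 0.24, adjusted p = 0.000552). These were the 2 falls among 28 detoxification genes, and 0 rose (with the block, 4 rose and 4 fell). The share called in this list, 7.14%, lay near the 4.76% over all tested genes, and its median was 0.01. Of 32 cytokine and growth factor receptors, 9 rose and 4 fell. Il1r1, the interleukin 1 receptor, stood at 0.481, 0.580 and 0.483 FPKM in HSCs and 2.32, 3.7 and 3.24 in MPPs (log2 1.42, adjusted p = 0.00165), and Il6ra, the interleukin 6 receptor, at 1.28, 1.1 and 1.32 FPKM in HSCs and 2.95, 3.46 and 2.28 in MPPs (log2 0.79, adjusted p = 0.0154). Tgfbr3, the TGF-beta co-receptor, fell from 5.7, 5.05 and 6.34 to 1.48, 1.2 and 1.56 FPKM (log2 -1.47, adjusted p = 0.000497), while Tgfbr2 rose by a log2 of 0.50. The interferon receptor chain Ifnar2 (log2 0.53) and its neighbour Il10rb (log2 0.64) rose. Without MPP replicate 2 the receptors gave 3 rises and 1 fall. Among 27 adhesion genes, 6 rose and 4 fell (10 and 6 with the block, and 4 and 4 without HSC replicate 3). The rises included the leukocyte integrin chains Itgal (1.61, 1.09 and 0.951 FPKM in HSCs and 4.78, 3.98 and 2.96 in MPPs, log2 1.14, adjusted p = 0.00597), Itgam (log2 1.13) and Itgb7 (log2 1.35), with Emb (log2 1.43) and the hyaluronan receptor Cd44 (log2 0.55). The falls were Itga2b, Itgb3, the tetraspanin Cd9 (96.3, 103 and 89.6 FPKM in HSCs and 51.3, 59.4 and 55.4 in MPPs, log2 -0.79, adjusted p = 0.00227) and the junction protein Esam (log2 -0.74).

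Antigen presentation genes were counted by class. In MHC class II presentation, 3 of 11 tested genes rose and 0 fell (5 rose with the block, and 2 without HSC replicate 1, HSC replicate 3 or MPP replicate 2). Ctss, the protease that trims the invariant chain, stood at 8.02, 12.2 and 12 FPKM in HSCs and 39.2, 57.8 and 37.9 in MPPs (log2 1.96, adjusted p = 0.00077), and the H2-O chains that restrain peptide loading rose, H2-Ob to 11.5, 14.4 and 13.6 from 4.41, 1.79 and 4.06 FPKM (log2 1.74, adjusted p = 0.003) and H2-Oa by a log2 of 0.81. Ciita, the class II master regulator, was below the filter. In MHC class I presentation 0 of 18 passed by limma or by voom, the same kind of test on the recovered reads (2 at an unadjusted p below 0.05, 1 with the block). Of 50 interferon-stimulated genes, 3 rose and 1 fell, with a median of 0.13, beside 2.77% higher and 1.99% lower over all tested genes. With the block 5 rose and 2 fell, beside 500 and 317 of all 10678 tested genes. Whether the list differs from those shares was not tested. Irf7, a regulator of interferon genes, stood at 4.62, 8.24 and 6.3 FPKM in HSCs and 10.6, 14.4 and 11.5 in MPPs (log2 0.85, adjusted p = 0.03), and Ifi27l2a at 7.05, 10.9 and 9.96 FPKM in HSCs and 16.8, 40.3 and 27.3 in MPPs (log2 1.44, adjusted p = 0.0157). Rtp4 rose by a log2 of 0.71, and Ifit2 fell (5.61, 5.0 and 5.43 FPKM in HSCs and 3.67, 3.6 and 3.46 in MPPs, log2 -0.47, adjusted p = 0.0391). Leaving out each library gave 0 to 3 rises and 0 falls, fewest without HSC replicate 1.

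Few genes of the cell cycle passed between these GFP-low cells. Of 56 DNA replication genes 0 passed by limma or voom (9 with an unadjusted p below 0.05, 1 with the block), with a median of -0.00. Of 62 mitosis genes 0 rose and 2 fell, near the 1.99% that fell among all genes. Negative differences numbered 57, beside 5316 of all 10678 tested genes, and the median was -0.19. That median was -0.09 without MPP replicate 3, -0.12 without HSC replicate 2 and -0.33 without MPP replicate 2. Mki67, the proliferation antigen Ki-67 (chromosome 7, 135689784 to 135716450), stood at 5.44, 6.38 and 6.64 FPKM in HSCs and 3.37, 4.24 and 3.43 in MPPs (log2 -0.61, SE 0.13, adjusted p = 0.0232), and Ckap2, a spindle protein, at 9.37, 10.7 and 10.5 FPKM in HSCs and 6.63, 7.73 and 6.56 in MPPs (log2 -0.49, SE 0.11, adjusted p = 0.037). All MPP libraries lay below all HSC libraries in both genes. The call of Ckap2 was lost without any 1 of the 6 libraries, and that of Mki67 without HSC replicate 2, HSC replicate 3, MPP replicate 1 or MPP replicate 3. Among 24 genes of CDK inhibitors and quiescence, Btg2, an antiproliferative gene (2.98, 3.32 and 1.86 FPKM in HSCs and 5.84, 9.82 and 6.03 in MPPs, log2 1.14, adjusted p = 0.015), and Gas6 (log2 0.77) rose. Cdkn1c, the inhibitor p57 (2.84, 3.62 and 4.85 FPKM in HSCs and 2.2, 1.77 and 1.37 in MPPs, log2 -0.77, adjusted p = 0.0452), and the cyclin Ccnd2 (log2 -0.43) fell. Leaving out each library gave 0 to 2 rises and 0 to 1 falls among these 24. Imprinted growth-control genes fell in 3 of 8 tested members and rose in 0: Grb10, an adaptor that restrains insulin signalling (6.71, 5.85 and 8.09 FPKM in HSCs and 3.3, 1.91 and 3.8 in MPPs, log2 -1.0, adjusted p = 0.0176), Ndn, necdin (15.8, 18.6 and 14.9 FPKM in HSCs and 8.51, 8.75 and 7.6 in MPPs, log2 -0.90, adjusted p = 0.0025), and Cdkn1c. With the block the call of Cdkn1c was lost, and without HSC replicate 3 the count was 1.

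Mitosis genes share promoter letters that the selection did not use. The CHR element TTTGAA or its reverse TTCAAA was present in 18 of 51 mitosis promoters (35.3%) against 10.8% of tested promoters, and CCAAT or ATTGG in 38 (74.5%) against 37.3%. The promoter of Mki67 is shown because it holds both kinds and belongs to 1 of the 2 mitosis genes that passed, with capitals at the matches.
Mki67 (chr7:135716380-135716629, minus strand): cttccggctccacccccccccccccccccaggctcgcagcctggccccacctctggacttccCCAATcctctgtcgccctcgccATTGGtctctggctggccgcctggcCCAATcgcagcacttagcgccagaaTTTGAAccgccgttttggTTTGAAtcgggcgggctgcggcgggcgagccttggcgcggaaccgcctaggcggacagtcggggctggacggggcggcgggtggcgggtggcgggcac
Distances are to the start that the promoter table uses, which lies inside the gene span given above. CCAAT letters begin 188, 166 and 141 bases before it and CHR letters 116 and 98 bases, and none of these overlap. Among falling genes 17.2% of promoters held a CHR match and among rising genes 8.52%, beside 16.3% of all RefSeq promoters, tested or not. CCAAT letters went the other way in falling genes, with 28.2% of falling and 30.5% of rising promoters against 37.3% of tested promoters.

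Housekeeping groups showed few calls or none. By limma and by voom, 0 of 75 oxidative phosphorylation genes, 0 of 30 DNA methylation and Polycomb genes and 0 of 19 genes of the HIRA complex, H3.3 and histone chaperones passed, with medians of 0.01, 0.05 and -0.04. At an unadjusted p below 0.05 there were 2, 1 and 1. Hira itself stood at 1.58, 2.4 and 2.38 FPKM in HSCs and 1.72, 2.08 and 2.24 in MPPs (log2 -0.04, adjusted p = 0.946). In glycolysis, Ldha, lactate dehydrogenase A (279, 272 and 239 FPKM in HSCs and 208, 187 and 202 in MPPs, log2 -0.40, adjusted p = 0.0432), and Pfkp (log2 -0.48) fell, while the myeloid hexokinase Hk3 rose (11, 10.5 and 8.84 FPKM in HSCs and 29.8, 32.8 and 24.3 in MPPs, log2 1.43, adjusted p = 0.00063). The falls numbered 1 without HSC replicate 3 and 0 without any other library. Ribosomal proteins held 1 fall in 80, the retrocopy Rpl32l, whose reads the parent gene could share, and replication-dependent histones 1 rise in 43, H2bc18 (log2 1.01), within the part of histone RNA that polyA libraries catch. Of the BCL2 family, Bcl2, which blocks apoptosis, was 1 fall in 23 (3.98, 4.73 and 5.48 FPKM in HSCs and 3.15, 2.68 and 2.46 in MPPs, log2 -0.60, adjusted p = 0.0399), and with the block 2 rose and 2 fell. The call of Bcl2 was lost without any 1 library other than HSC replicate 1.

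Markers of other cell types were followed beside these results. Over all 10678 tested genes 5362 were positive. Mature neutrophil genes were higher in MPPs in 13 of 13 tested members, with a median of 0.82, and 2 passed. Camp, the granule peptide cathelicidin (chromosome 9, 109847377 to 109849456), stood at 349.9, 377 and 359 FPKM in HSCs and 768, 839 and 477 in MPPs (log2 0.90, SE 0.18, adjusted p = 0.0229), and Ltf, lactoferrin, at 42.9, 53.8 and 54.3 FPKM in HSCs and 118, 139.9 and 67.4 in MPPs (log2 1.03, SE 0.23, adjusted p = 0.0374). The list's summed level was 3759 to 4119 FPKM in HSC libraries and 4759 to 9110 in MPP libraries, with MPP replicate 3 the lowest MPP library for both genes. Without that library 13 of 13 passed, without any other library 0 did, and with the block 5 did (8 by voom on recovered reads). Macrophage genes were positive in 9 of 9 tested members with 0 called by limma or voom (2 at an unadjusted p below 0.05, summed level 51.6 to 54.5 against 55.7 to 73.4 FPKM), and Adgre1, Mrc1 and Siglec1 were below the filter. Of 14 B cell genes 4 were tested and 0 passed by limma or voom (2 at an unadjusted p below 0.05, 1 with the block), with Ms4a1 and Pax5 below the filter. Of 17 T and NK cell genes 4 were tested: Lck (5.27, 5.47 and 5.12 FPKM in HSCs and 11.5, 14.1 and 9.24 in MPPs, log2 0.99, adjusted p = 0.00461) and Nkg7 (log2 1.09) rose and Klrb1c (log2 -0.64) fell, a fall not called once any 1 library was left out, while Cd3e, Cd4 and Cd8a were below the filter. Of stroma and endothelium genes Bgn fell (log2 -0.64), 1 of 5 tested (2 rose with the block), with Cdh5, Kdr and Col1a1 below the filter. Of dendritic cell genes Flt3 passed, 1 of 4 tested (2 with the block), and Siglech and Zbtb46 were below the filter.

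The 508 genes were followed in libraries that did not choose them. The GFP-high libraries may not be independent of the GFP-low ones. Among WT libraries of both GFP levels, 17 of 18 same-numbered pairs deviated together. GFP-high WT cells, which kept more of the label, gave 369 calls of 10853 genes (3.4%), 170 higher (1.57%) and 199 lower (1.83%) in MPPs. Of all genes tested at both GFP levels, 52.0% were positive there and 48.0% negative. Of the rising genes of GFP-low cells that were tested there, 264 of 287 (92.0%) had a positive difference and 125 rose, which is 43.6% of them and 76.7% of the GFP-high rises tested in both. Of the falling genes 197 of 204 (96.6%) were negative and 127 fell, which is 62.3% and 72.2%. Only 1 gene was called in opposite directions, Camp. Flt3 stood at 3.3, 4.55 and 4.07 FPKM in GFP-high HSCs and 33.7, 46.1 and 36.9 in GFP-high MPPs (log2 3.00), and Slamf1 had a log2 of -2.66, Vwf of -2.16 and Apoe of -1.88, beside -2.51, -2.07 and -1.78 in GFP-low cells. In GFP-low cells labelled KO, 44 of 10702 genes passed (0.411%), 13 higher (0.121%) and 31 lower (0.29%), and 269 of 291 rising and 191 of 198 falling genes kept their sign. All genes tested in WT and labelled KO were positive in 52.7% and negative in 47.3% in these labelled KO cells. Hira stood there at 2.05 FPKM in HSCs and 1.66 in MPPs, so its level over all exons does not check the label. In WT cells of the first cohort, sorted without GFP 1 week after the first poly(I:C) dose with 4 libraries a side, 2051 of 13876 genes passed (14.8%), 1020 higher (7.35%) and 1031 lower (7.43%). Of the genes matched there by symbol, 277 of 277 rising and 171 of 177 falling genes had the same sign, and 233 and 140 passed. Over all genes so matched, 48.6% were positive in the first cohort and 51.4% negative. In all 4 comparisons 11 genes rose, among them Ccl3, Cd34, Ctss, Dntt, Flt3 and Tespa1, and 19 fell, among them Apoe, Itga2b, Itgb3, Mycn, Slamf1, Treml1 and Vwf.

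**Figure D4:**
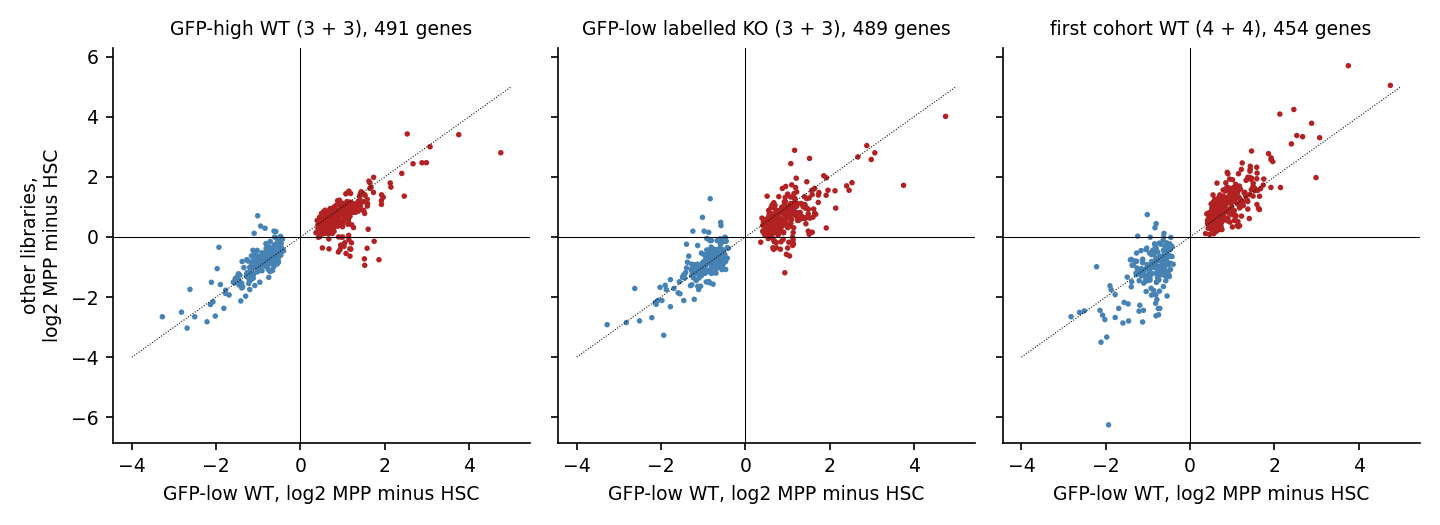
Log2 differences between MPPs and HSCs of the genes called in GFP-low WT cells (x axis) against the same genes in GFP-high WT, GFP-low labelled KO and first-cohort WT libraries (y axis), with a dotted line where both are equal. Of the genes tested in GFP-high cells, 92.0% of rises and 96.6% of falls keep their sign, and the red points below 0 include Camp and Car1. Over all genes tested at both GFP levels, 52.0% are positive and 48.0% negative in GFP-high cells.

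The difference between GFP-low and GFP-high cells was tested gene by gene. Of 11197 genes, 0 passed by limma (0%), and the unadjusted p lay below 0.05 for 443, with 560 expected. The smallest p belonged to Camp (difference of log2 effects 1.40, 95% interval 0.89 to 1.91, adjusted p = 0.387), with 584, 629 and 752 FPKM in GFP-high HSCs and 442, 434 and 505 in GFP-high MPPs. GFP-low MPPs thus held more Camp than GFP-low HSCs in every library, and GFP-high MPPs less than GFP-high HSCs. Crip2, a LIM-domain protein (1.40), Gm11694 (-1.72, on 9 to 30 reads), Hagh, a glyoxalase (0.71), and Alox5, the leukotriene enzyme (0.99), followed, with adjusted p from 0.387 to 0.499. With the replicate number as a block 14 genes passed, Car1 and Pf4 among them, though 1 of 18 same-numbered pairs of these 12 libraries did not deviate together by the limit used. Without MPP GFP-low replicate 3, 12 genes passed, with Camp, Ltf, Ngp, S100a8 and S100a9 among them. Car1 stood at 178, 126 and 62.2 FPKM in GFP-high HSCs and 104, 43.5 and 42 in GFP-high MPPs (log2 -0.94), and Pf4 at 34.6, 59.7 and 37.2 FPKM in GFP-high HSCs and 34.2, 35.8 and 30.03 in GFP-high MPPs (log2 -0.34). Cd48 stood at 8.39, 6.77 and 2.0 FPKM in GFP-high HSCs and 4.84, 6.43 and 7.58 in GFP-high MPPs (log2 0.26), so that GFP-low MPPs held the most Cd48 among these 12 WT libraries of the H2B-GFP cohort.

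**Figure D5:**
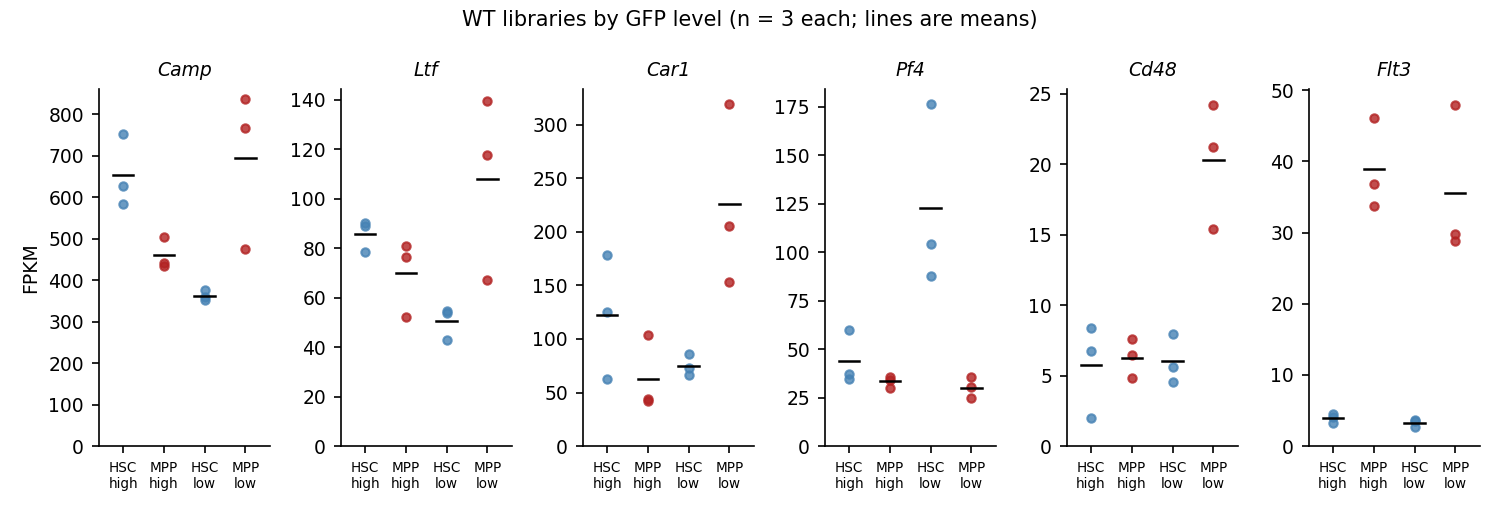
FPKM of 6 genes in the 12 WT libraries of the H2B-GFP cohort after joint scaling, HSCs in blue and MPPs in red, with lines at the means of 3 libraries and each axis starting at 0. Camp and Ltf are highest in GFP-low MPPs by mean and lower in GFP-high MPPs than in GFP-high HSCs, Pf4 is highest in GFP-low HSCs, and Flt3 separates the cell types at both GFP levels.

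The same lists are set side by side for GFP-high, GFP-low labelled KO and first-cohort libraries. Over all genes 1.57%, 0.121% and 7.35% were called higher there and 1.83%, 0.29% and 7.43% lower. Counts called are therefore not alike between these comparisons. Megakaryocyte genes had a median of -0.83 in GFP-high cells (11 of 17 lower), -1.17 in GFP-low labelled KO cells (7 of 19 lower) and -2.15 in the first cohort (18 of 18 lower). MPP and lymphoid priming genes had medians of 0.77, 0.63 and 1.37, with 12, 4 and 16 of 20 higher and 0, 0 and 1 lower. HSC-enriched genes had medians of -0.56, -0.50 and -0.51, with 18, 3 and 18 lower and 3, 0 and 6 higher. Erythroid genes had a median of -0.73 in GFP-high cells (0 higher and 3 lower of 22, 18 negative), 0.09 in labelled KO and 0.44 in the first cohort. Mature neutrophil genes had -0.32 in GFP-high cells, where 13 of 13 were negative, -0.18 in labelled KO and 1.41 in the first cohort. Granulocyte-monocyte genes had -0.22, -0.02 and 1.55. Mitosis genes had 0.04, 0.03 and -1.11, with 54 of 59 lower in the first cohort and 0 lower in both others by limma. Differences between list medians were not tested.

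Against GFP-low cells labelled KO, the MPP to HSC difference itself passed for 0 of 11244 genes by limma (0%), and the unadjusted p lay below 0.05 for 520, with 562 expected. Snora41, a small nucleolar RNA gene (-2.11, on 6 to 19 reads in WT), Cep76, a centriole protein (-1.41), Gm12238 (2.12), Slc30a9 (-0.91) and Mir103-2 (2.66) had the smallest p, with adjusted p from 0.371 to 0.888. Several of these are short genes on few reads, and without labelled KO HSC replicate 2, Snora41 passed. At these depths and 3 libraries a group, a miss does not show that labelled KO and WT cells share the same difference.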

How the data were processed

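RNA was measured in 6 GFP-low WT libraries (3 HSC, 3 MPP), made from polyA RNA with SMART-Seq2 and Nextera XT, per the labels' protocols. The authors deposited FPKM values, 1 per gene in each library. STAR, DESeq2, HOMER and mm10 are named, without roles, per the submitters' processing notes, and strandedness is not given in the sources used here, so reads of overlapping or antisense genes cannot be told apart. All 40 value columns matched a sample and 0 did not.

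The 6 columns were rescaled by median of ratios, filtered at 1 FPKM in at least 3 columns, and tested with limma 3.58.1 (R 4.3.3) on log2(FPKM + 1), with an intensity trend, two-sided, after a check on simulated data. That check recovered 78.9% of 95 genes changed 2-fold and 100% of 95 changed 4-fold, with 26 false calls among 10664 genes. Its reads were drawn without pairing and at 1 fixed spread (dispersion 0.03), so it does not give the error rate in these libraries. An exact permutation test of 3 against 3 cannot go below p = 0.1. Replicates differed beyond counting noise, with a chi-square of 8.91 or more per gene in each pair. Same-numbered HSC and MPP libraries deviated together (correlations 0.271, 0.260 and 0.234, others -0.148 to -0.102), so the numbers pair these libraries. The pairing comes from the data and not from the labels.

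The comparison and the gene lists were chosen with earlier results of these data known. Named genes are the 12 largest rises and 12 largest falls past the test with no overlap whose log2(FPKM + 1) averages at least 3, up to 4 called members per list and direction, members of lists with under 3 calls, all HSC-enriched and MPP genes, and the 5 smallest p of each difference test. Others named were chosen after their values were seen. Of 181 genes so listed, the text gives those that its results turn on, and some genes are not reported here. Positions and promoters are RefSeq's on GRCm38.p6.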

Additional observations from a re-analysis of the deposited data

How the results depend on the processing

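Against 508 called genes, 468 to 539 were called with pseudocounts of 0.1 or 0.5, without the filter, with values as deposited, without the intensity trend, with quality weights, with genes of either table or with all libraries scaled to the same FPKM total. At the same total the all-gene median was -0.05 and the split 250 higher and 263 lower, against 296 and 212. Of the 508, 388 were shared without the filter, 462 at the same total and 490 with weights. Without Rn45s and mature neutrophil genes in that total, a setting chosen after seeing the data, the count was 498, with 258 higher and 240 lower. Voom on recovered reads, also added later, gave 592, of which 473 were shared. At 5 FPKM 330 passed, in a fit of all 12 GFP-low libraries 168 (79 higher and 89 lower), and with a 2-fold limit 189. Leaving out each library gave 283 to 402. With the replicate block 817 passed. The difference from GFP-high cells gave 0 in all other settings but 12 without MPP GFP-low replicate 3 (range 0 to 12) and 14 with the replicate block. The 14 included the erythroid genes Alas2, Car1, Hba-a1 and Slc4a1 (positive) and Pf4 (negative). Over those 12 libraries 17 of 18 same-numbered pairs correlated above 0.1 and 1, GFP-low HSC 3 with GFP-high MPP 3, at 0.0319, so that the numbers miss the limit set for pairing by that pair alone. No differently numbered pair was above 0.1. The difference from labelled KO ranged from 0 to 1 on leaving out libraries, and was 0 in all other settings, the block included. Of 105 called genes among those listed, 39 passed in every setting that tested them, and 0 reversed. Genes on few reads, such as Cavin2 and Dntt in 1 cell type, have imprecise folds at this depth.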

Other observations

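Genes of mast cells, basophils and eosinophils differed between single libraries of the same cell type. Prg2, the major basic protein of eosinophil granules, stood at 98.2, 1.22 and 1.03 FPKM in HSCs and 1.58, 86.6 and 0.111 in MPPs (log2 -0.28, adjusted p = 0.973), high in HSC replicate 1 and MPP replicate 2 alone. Mcpt8, a basophil protease, stood at 9.2, 0.0787 and 0.674 FPKM in HSCs and 6.63, 2.5 and 5.12 in MPPs, and Prss34, a mast cell and basophil protease, at 11.4, 0.129 and 0.0787 FPKM in HSCs and 8.85, 0.989 and 4.04 in MPPs, with HSC replicate 1 highest in both. Of 14 genes listed for these cells 5 were tested and 0 passed by limma or voom (0 at an unadjusted p below 0.05), and Fcer1a, Ms4a2 and Epx were below the filter.

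Of 12 tested Hox genes and cofactors, Hoxa9 rose (a call lost without any 1 library), while Hoxa10 stood at 6.41, 7.2 and 7.4 FPKM in HSCs and 6.65, 6.64 and 6.85 in MPPs (log2 -0.05, adjusted p = 0.887) and Hoxa7 at 9.32, 9.94 and 10.8 FPKM in HSCs and 11.7, 11.1 and 12.6 in MPPs (log2 0.21, adjusted p = 0.379). Among immediate-early and stress genes, Myc stood at 81.2, 73.7 and 67.6 FPKM in HSCs and 106, 97.1 and 97.5 in MPPs (log2 0.43, adjusted p = 0.0364) and the mRNA decay factor Zfp36 at 3.02, 3.63 and 4.54 FPKM in HSCs and 6.4, 6.46 and 7.16 in MPPs (log2 0.71, adjusted p = 0.0177), and 22 of the 24 tested did not pass. The call of Myc was lost without any library but HSC replicate 1, and that of Zfp36 without any but HSC replicate 3.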
